A study of Mus musculus with 3 samples.

Results

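Megakaryocyte progenitors, the bone marrow and fetal liver cells that will mature into platelet-shedding megakaryocytes, were picked out of a single-cell data set on newborn mouse liver. RNA and 10 surface proteins were counted together (CITE-seq, in which antibodies carry a sequenced tag) in liver cells that were sorted on postnatal day 0 as negative for lineage markers and positive for KIT. The 3 groups had 1 library each. Control is labelled as wild type, MLL-ENL carried the leukemia fusion that the labels write MLL::ENL, and the Skida1-deleted group carried the same fusion together with a deletion of Skida1. The driver or Cre line of these alleles and the number and pooling of the animals were not given in the sources used here. Where 3 values follow each other below, their order is Control, MLL-ENL, Skida1-deleted.

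A cell was kept with at least 1000 unique molecular identifiers (UMIs, one per captured RNA molecule) in genes, at least 500 genes and under 10% mitochondrial UMIs. A kept cell counted as a megakaryocyte progenitor with a UMI in at least 3 of Pf4, Itga2b, Gp1bb, Treml1, Rab27b and Vwf, with these 6 genes summing to 5 or more per 10000 gene UMIs. The erythroid genes Klf1, Ermap, Rhd and Rhag had to sum below 5 per 10000. This chose 753 of 26887 kept cells, made up of 112 of 5777 Control cells, 277 of 11148 MLL-ENL cells and 364 of 9962 Skida1-deleted cells. Because the cells were chosen on measured RNA, the levels of these 10 genes are a description and support nothing. With 1 library per group no test between groups was possible, no p-value is given, and all intervals in brackets are 95% intervals that cover counting error only.

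Megakaryocytes arise from stem cells and from a progenitor shared with red cells. They enlarge and copy their genome without dividing (endomitosis), fill granules with clotting and adhesion proteins, and release platelets. The factors GATA1, NFE2, GFI1B, FLI1 and RUNX1 drive this program. In newborn mice the liver still makes blood while the marrow is being colonised. MLL-ENL joins the histone methyltransferase MLL to the elongation factor ENL and keeps HoxA genes active, whereas Skida1 encodes a protein linked to Polycomb complexes.

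The leading genes of these cells were those of the megakaryocyte line. Over the 3694 genes with at least 30 counts per 1000000 gene UMIs (CPM) in all 3 libraries of the chosen cells, the 20 with the highest fold over all other kept cells, taking the lowest of the 3 libraries, held the 6 selecting genes and 14 others. The others were Cavin2, Itgb3, F2rl2, Mrvi1, Sardh, Rbpms2, Pde10a, Gucy1a1, Mylk, Serpine2, Ehd3, Gucy1b1, Myom1 and F10. Cavin2, a caveolar coat protein, was at 343, 254 and 243 CPM, at least 59.9-fold above the other cells of each library. Itgb3, which encodes the partner chain of CD41 in the platelet fibrinogen receptor, was at least 30.7-fold above them. These folds come from the genes that separate the chosen cells, so they are given as a description.

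The promoters of 17 of the 20 leading genes were found in the RefSeq promoter table of GRCm38.p6. The 250 bases before the start were searched on both strands for the GATA motif (AGATAA or TGATAA) and the ETS motif (AGGAAG), which are the binding words of GATA1 and of FLI1-type factors. The GATA motif was present in 3 of 17 windows (17.6%), against 17.0% of 27025 promoters. The ETS motif was present in 8 of 17 (47.1%), against 29.2% of all, and both were present in 2 of 17 (11.8%), against 4.76%. A match is a run of letters and no evidence of binding. The windows of 3 genes are shown, with matches to either motif in capitals (on the minus strand the ETS motif reads CTTCCT): Pf4 and Itga2b, because they encode the chemokine and the integrin that define these cells, and F2rl2, because an ETS and a GATA match adjoin there.
Pf4, chr5:90772185-90772434, plus strand: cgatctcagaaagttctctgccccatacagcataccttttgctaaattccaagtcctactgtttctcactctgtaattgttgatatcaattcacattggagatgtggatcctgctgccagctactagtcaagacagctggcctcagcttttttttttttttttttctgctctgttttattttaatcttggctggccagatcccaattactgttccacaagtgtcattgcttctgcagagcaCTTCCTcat
Itga2b, chr11:102469884-102470133, minus strand: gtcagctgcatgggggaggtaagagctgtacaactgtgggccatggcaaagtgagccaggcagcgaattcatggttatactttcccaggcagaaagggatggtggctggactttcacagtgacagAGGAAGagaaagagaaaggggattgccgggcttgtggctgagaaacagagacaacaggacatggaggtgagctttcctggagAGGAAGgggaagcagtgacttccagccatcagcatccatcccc
F2rl2, chr13:95696670-95696919, plus strand: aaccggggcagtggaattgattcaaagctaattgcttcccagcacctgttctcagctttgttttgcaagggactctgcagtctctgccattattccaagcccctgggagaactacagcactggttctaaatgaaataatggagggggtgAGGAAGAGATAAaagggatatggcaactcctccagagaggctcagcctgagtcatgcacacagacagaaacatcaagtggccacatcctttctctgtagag
In the Pf4 window the match began at position -9 from the start. In F2rl2, a thrombin receptor gene, the ETS match began at -101 and the GATA match at -95.

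Megakaryocyte progenitors made up 1.94% of the Control cells [1.60–2.33], 2.48% of the MLL-ENL cells [2.20–2.79] and 3.65% of the Skida1-deleted cells [3.29–4.04]. The 3 shares stood in that order, and the interval of MLL-ENL overlapped that of Control. The share was 1.28-fold higher in MLL-ENL than in Control [1.03–1.61] and 1.47-fold higher in the Skida1-deleted library than in MLL-ENL [1.25–1.73]. When every cell was first thinned to 3000 UMIs, the shares were 0.930%, 1.51% and 1.64%. The first of these folds was then 1.62 and the second 1.09, so the size of each step changed with thinning. Over the other 8 alternatives of choosing the cells, the order of the 3 shares was the same.

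The libraries differed in depth. The chosen cells had medians of 18408, 13926 and 12867 UMIs, and 2299914, 4275628 and 5439243 UMIs in all. The other kept cells had medians of 29686, 14144 and 18997.5 UMIs. A UMI in at least 3 of the 6 genes was found in 351, 434 and 630 kept cells, of which 115, 292 and 372 also reached the level of 5 per 10000. The erythroid limit then left out 3, 15 and 8 cells. The level alone was also reached by 18, 193 and 43 cells with a UMI in fewer than 3 of the genes, and these were not counted.

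The selection is a range of a score with no natural edge. Between 5 and 6 per 10000 lay 11 Control, 20 MLL-ENL and 38 Skida1-deleted cells, with median CD41 tag counts of 202, 73 and 101.5. Cells with 3 of the genes and a sum of 4 to 5, just outside, numbered 30, 24 and 49, with medians of 61.5, 88.5 and 123. CD150 counts just inside were 233, 143 and 162.5, and just outside 144, 219 and 168. Cells on both sides of the threshold thus carried tags well above the medians of 5 to 6 (CD41) and 12 to 14 (CD150) in cells that were not chosen.

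Along the sum of the 6 genes, the Control cells lay lower than those of the other libraries. The median sum was 12.1 per 10000 in Control, with quartiles of 7.35 and 26.2. For MLL-ENL it was 22.7 (quartiles 9.15 and 51.7), and with Skida1 deleted 19.7 (quartiles 9.32 and 44.8). In Control 42.0% of the cells lay between 5 and 10 and 16.1% at 40 or more. These shares were 28.2% and 33.6% for MLL-ENL, and 27.2% and 27.5% with Skida1 deleted. The cells at 40 or more numbered 18, 93 and 100. A UMI in 3 genes is met at a low sum more easily by a deep cell. The chosen Control cells were the deepest, with medians of 18408, 13926 and 12867 UMIs. The part of depth in the lower Control sums was not tested.

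**Figure D1:**
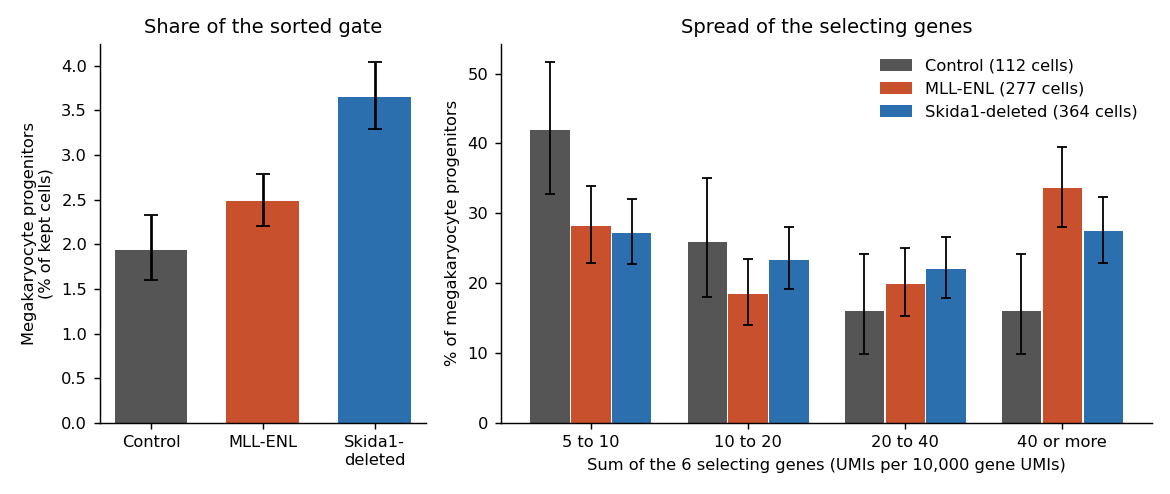
Left, megakaryocyte progenitors as a percentage of kept cells in each library; right, the percentage of each library's megakaryocyte progenitors in 4 ranges of the summed selecting genes (UMIs per 10000). Bars are shares and whiskers are exact binomial (Clopper-Pearson) 95% intervals. The shares are 1.94%, 2.48% and 3.65%, and 42.0% of the Control cells lie in the lowest range against 28.2% and 27.2% in the others. The chosen Control cells were the deepest, and the part of depth in these ranges was not tested.

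The largest part of the sum was Pf4, which encodes platelet factor 4, a chemokine stored in platelet granules. Pf4 was at 2004, 3746 and 3658 CPM. Vwf, the adhesion protein von Willebrand factor, was also lowest in Control, at 80.4 CPM against 135 and 124 CPM. Itga2b, which encodes CD41, was at 318, 268 and 243 CPM. Gp1bb, a chain of the von Willebrand factor receptor, was highest in Control at 166 CPM and stood at 97.8 and 80.2 CPM in the others. Rab27b, a small GTPase of granule transport, followed it with 261, 154 and 145 CPM, and Treml1, a receptor of platelet granules, was at 145, 168 and 125 CPM. The selecting genes therefore did not differ in 1 direction, with 2 of 6 at least 1.5-fold higher in MLL-ENL than in Control and 2 of 6 lower. All 6 were detected in 42.9% of the Control cells, 37.5% of the MLL-ENL cells and 30.5% of the Skida1-deleted cells.

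The share of cells with a UMI was also taken at equal depth. After thinning to 3000 UMIs, Pf4 was found in 63.4% [53.8–72.3], 76.6% [71.2–81.5] and 79.3% [74.8–83.4] of the chosen cells, in the order Control, MLL-ENL and Skida1-deleted. In cells at or above the erythroid limit (medians of 37900, 27894.5 and 29933.5 UMIs) it was found in 0.219%, 2.34% and 0.870%. Those cells had by definition not met the megakaryocyte rule, so their low shares are partly set by the selection and do not measure free RNA. Without thinning the shares were 81.2%, 88.8% and 91.2% in the chosen cells. The thinned share for Vwf was 13.4% [7.69–21.1], 34.7% [29.0–40.6] and 31.1% [26.4–36.2], against at most 0.628% of the erythroid cells of any library. No chosen cell of Control, 3 of MLL-ENL and 1 of the Skida1-deleted library were too shallow for thinning.

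The surface tags, which the selection did not use, were high in the chosen cells. CD41, the integrin chain encoded by Itga2b, had medians of 499.5, 379 and 367.5 counts per chosen cell. Other kept cells had medians of 5, 5 and 6 counts. Above the 90th percentile of CD41 in their own library lay 94.6% of the Control cells [88.7–98.0], 91.0% of the MLL-ENL cells [87.0–94.1] and 94.2% of the Skida1-deleted cells [91.3–96.4]. The 3 intervals overlapped.

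CD150, the SLAM family receptor that marks stem cells and early megakaryocyte progenitors, had medians of 204, 186 and 192.5 counts in the chosen cells against 14, 13 and 12 in the others. Above the 90th percentile of their library (138, 99 and 150 counts) lay 73.2% [64.0–81.1], 83.8% [78.9–87.9] and 66.5% [61.4–71.3] of the chosen cells. The share was highest in MLL-ENL, where the percentile itself was lowest, while the medians of the counts were nearly equal. Slamf1, the gene of CD150, was at 33.0, 16.4 and 15.3 CPM. Its RNA was thus 2.02-fold lower in MLL-ENL than in Control [1.44–2.83], beside near-equal medians of the unscaled tag counts. As a share of all tag counts of the chosen cells, CD150 was 5.70%, 7.27% and 7.18%.

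Among the other tags, CD117 (KIT) had medians of 256.5, 223 and 237.5 in the chosen cells, against 514, 359 and 442 in the rest of the KIT-sorted gate. Kit RNA was at 80.0, 82.6 and 113 CPM. CD48, a SLAM family protein of committed progenitors, had medians of 2143, 1498 and 1527.5. CD34 (17.5, 9 and 9), Sca1 (61.5, 25 and 19.5) and CD135 (6, 7 and 5), which mark stem and lymphoid-primed cells, were near the medians of the other cells.

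**Figure D2:**
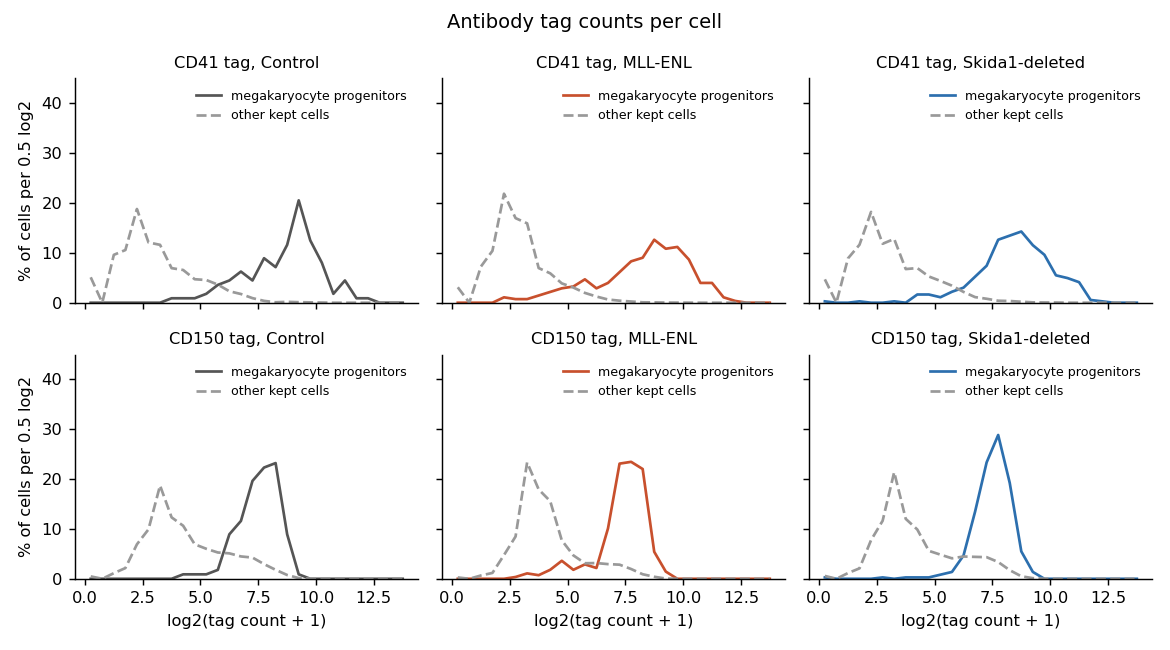
Distribution of CD41 (upper row) and CD150 (lower row) tag counts per cell in each library, as the percentage of cells per step of log2(count + 1). Solid lines are megakaryocyte progenitors and dashed lines the other kept cells. For both tags the solid curve lies to the right of the dashed one in all 3 libraries, with CD41 medians of 499.5, 379 and 367.5 counts.

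A gate on the tag alone would have drawn a wider circle than the RNA rule. A CD41 count of at least 100, a level chosen after the data were seen, was reached by 256 Control, 357 MLL-ENL and 575 Skida1-deleted cells, or 4.43%, 3.20% and 5.77% of kept cells. Of these, 38.3%, 62.2% and 55.7% were megakaryocyte progenitors by the RNA rule. The CD41-high cells outside the rule had median 6-gene sums of only 1.16, 1.64 and 2.03 per 10000, and 24.1%, 8.89% and 15.3% of them reached the erythroid limit. Conversely, 87.5%, 80.1% and 87.9% of the chosen cells reached a CD41 count of 100. By this raw count the order of the libraries was not the same, since CD41-high cells were a lower share in MLL-ENL than in Control. The counts were not scaled between libraries, and the 90th percentile of CD41 over kept cells was 49, 30 and 53. Whether staining or depth set this order was not tested.

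Cells without any Itga2b UMI carried CD41 at levels that differed between the libraries. In the Skida1-deleted library 36 chosen cells had no Itga2b UMI and a median CD41 count of 339.5, against 378 in the 328 cells with one. In MLL-ENL the 21 cells without an Itga2b UMI had a median of 34 counts, against 406.5 in the 256 cells with one. In Control only 2 cells lacked an Itga2b UMI, with a median of 30. All 3 medians were above those of 5, 5 and 6 in cells that were not chosen. The cells without an Itga2b UMI were also shallower, with medians of 7028, 8280 and 10689.5 UMIs against 18507.5, 14458 and 13191 in the cells with one.

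Within each library, genes and tags outside the 6-gene sum differed along it. The median CD41 count was higher in each successive range (5 to 10, 10 to 20, 20 to 40, and 40 or more). It was 251, 451, 780.5 and 1251 for Control, 125, 238, 428 and 783 for MLL-ENL, and 173, 274, 391 and 924.5 with Skida1 deleted. CD150 did not rise at each step, but its highest median lay in the highest range of each library. The medians were 209, 182, 190 and 217 counts in Control and 165, 172, 167 and 229 in MLL-ENL. With Skida1 deleted they were 193, 179, 181.5 and 212.5. The cells of the highest range were also the deepest. Median UMIs in the lowest and highest ranges were 16687 and 31615 for Control, 12040.5 and 18219 for MLL-ENL, and 11593 and 16154.5 with Skida1 deleted. The tag counts were not scaled for depth, and its part in the tag differences was not tested. Cd9, a tetraspanin of the platelet membrane, went from 220 CPM in the lowest range of Control to 900 CPM in the highest. The same steps were from 211 to 467 CPM for MLL-ENL and from 147 to 333 CPM with Skida1 deleted. Serpine2, a protease inhibitor of platelet granules, went from 9.87 to 174 CPM in Control, and Kit went from 101 to 46.7 CPM. These values are a description, because Itga2b is part of the sum and the cells were ordered by their RNA.

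Of 3 genes of late platelet production, picked after their values were seen, all were at low levels. Ppbp, a platelet chemokine, was at 2.61, 3.98 and 5.15 CPM, Tubb1, the platelet tubulin, at 2.61, 0.702 and 1.10 CPM, and Gp6, the collagen receptor, at 1.74, 0.234 and 0 CPM. Gp9, a chain of the von Willebrand factor receptor, was present at 153, 142 and 151 CPM. Gata1 was at 53.5, 53.3 and 55.5 CPM. Gp9 and Gata1 were thus at near-equal levels in the 3 libraries. A count of 3 UMIs would be 1.30, 0.702 and 0.552 CPM, so Ppbp stood above that level in each library.

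**Figure D3:**
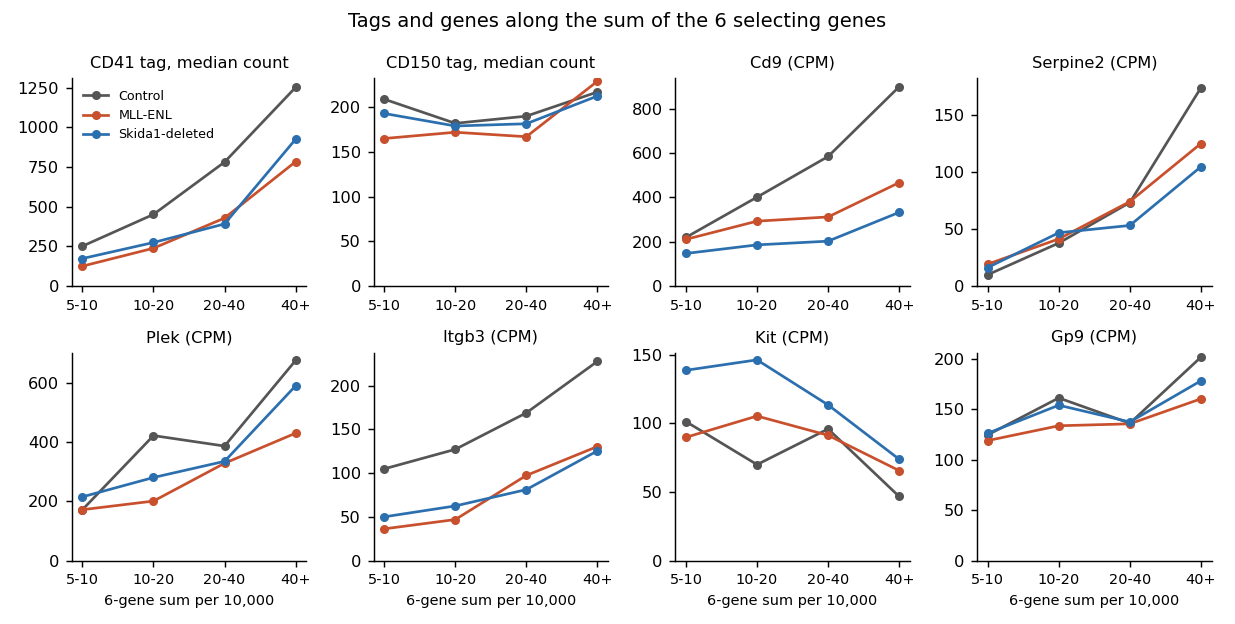
Median tag counts (CD41, CD150) and CPM of 6 genes in 4 ranges of the summed selecting genes, 1 line per library; each point is the value over the cells of that range, with no error drawn. CD41, Cd9, Serpine2, Plek and Itgb3 are higher in the highest range than in the lowest in all 3 libraries, while Kit is lower. CD150 differs less than CD41 between these ranges, at 165 and 229 counts in MLL-ENL. The highest range also holds the deepest cells of each library, and the tag counts are not scaled for depth.

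Markers of other lineages were present among the chosen cells to different extents. A level of 5 or more per 10000 in 8 genes of granulocyte, mast and B cells was reached by 8 Control, 7 MLL-ENL and 18 Skida1-deleted cells (7.14%, 2.53% and 4.95%). The 4 erythroid genes of the rule were all at 0 in 73.2%, 64.6% and 72.3% of the cells. Per cell, the median of 15 erythroid markers was 5.88, 5.75 and 4.79 per 10000, and that of 16 granulocyte-monocyte markers 5.89, 6.84 and 7.13. The latter list reached 5 per 10000 in 71 of 112, 196 of 277 and 272 of 364 cells, and its summed level was 1131, 806 and 838 CPM, against 2020, 1320 and 1518 CPM in the other kept cells. Calr, a chaperone of the endoplasmic reticulum that is on that list, alone gave 509, 577 and 614 CPM of it. That level of Calr is by itself above 5 per 10000. The list's medians and cell counts therefore do not show granulocyte-monocyte RNA in most chosen cells. The 15 B and lymphoid markers had medians of 0.468, 0 and 0 per 10000. They summed to 106, 43.0 and 50.01 CPM in the chosen cells and to 70.3, 61.2 and 48.2 CPM in the others. The Control sum was thus above that of its own library's other cells. It rests in part on few cells, since 2 Control cells reached 20 or more per 10000 beside a 90th percentile of 1.37. In MLL-ENL 0 cells and in the Skida1-deleted library 1 cell reached 20. Cd79b, a chain of the B cell receptor, had UMIs in 65, 83 and 119 chosen cells. Medians for the 10 macrophage, the 10 hepatocyte, the 10 endothelial and stromal and the 12 mast and basophil markers were 0 in all 3 libraries. The endothelial and stromal markers nevertheless summed to 23.5, 12.4 and 9.19 CPM, against 6.61, 5.22 and 4.77 CPM in the other kept cells. The part of other lineages in the results below was not tested, apart from the alternatives without such cells. High doublet scores were given to 0, 18 and 26 of the chosen cells (0%, 6.50% and 7.14%), against 4.62%, 8.92% and 7.97% of all kept cells.

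The sexes of the libraries differed. Xist, which coats the silenced X in female cells, had UMIs in 112 of 112 Control cells, 276 of 277 MLL-ENL cells and 2 of 364 Skida1-deleted cells, and a Y-linked gene had UMIs in 0, 0 and 293 cells. The Skida1 deletion and sex therefore cannot be told apart for any gene. No chosen cell barcode was shared between libraries, although each pair of libraries shared 16 to 23 kept barcodes. The targeted gene followed the labels. Skida1 (chromosome 2, 18044087 to 18048449) had 1, 43 and 5 UMIs, or 0.435, 10.1 and 0.919 CPM, which is 23.1-fold higher in MLL-ENL than in Control [3.94–935] and 10.9-fold lower after deletion [4.34–35.4]. Whether the remaining UMIs lie outside the deleted part was not tested.

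To compare libraries, UMIs were summed over the chosen cells of each, and genes with at least 10 CPM in either library and 50 UMIs over both were compared. Log2 values are ratios of CPM + 1, folds are ratios of CPM, and a gene at least 1.5-fold apart counts as higher or lower. Of 8022 genes, 553 (6.89%) were higher in MLL-ENL than in Control and 1267 (15.8%) were lower. The median log2 ratio was -0.17, and the SD over genes 0.50. After centring on that median, 893 genes were higher and 692 lower, so the excess of lower genes rests on the scaling. Between the Skida1-deleted library and MLL-ENL, 169 of 7695 genes (2.2%) were higher and 125 (1.62%) lower, around a median of -0.02. Both comparisons use the MLL-ENL library, so their values are not independent.

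The receptors and adhesion proteins of the platelet surface were level or lower in MLL-ENL than in Control. Of 28 such genes, 22 were compared, and none was higher and 8 (36.4%) lower, beside 15.8% of all genes. After centring 3 were lower. The median of the list was -0.41, against -0.17 for all genes compared. Clec1b, the receptor for podoplanin, was at 83.5, 26.2 and 19.7 CPM, which is 3.19-fold lower in MLL-ENL than in Control [2.51–4.06]. It was detected in 49, 51 and 50 cells. Esam, an adhesion protein of the junctional family, was at 25.2, 5.61 and 7.72 CPM, 4.49-fold lower [2.75–7.56].

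The thrombin receptor genes F2r, F2rl2 and F2rl3 were among the lower ones. After centring, F2rl2 stayed past 1.5-fold, while F2r and F2rl3 came within it. F2rl2 was at 118, 64.3 and 47.4 CPM, or 1.84-fold lower in MLL-ENL [1.55–2.18], and F2rl3 at 24.3, 15.0 and 7.35 CPM, or 1.63-fold lower [1.12–2.37]. F2r was at 287, 171 and 143 CPM. In the Skida1-deleted library F2rl3 was lower again than in MLL-ENL, by 2.04-fold [1.35–3.10]. Cd9 was the other receptor gene past 1.5-fold in that comparison, at 485, 350 and 228 CPM. These were 2 of 19 genes compared (10.5%) with none higher, beside 1.62% lower and 2.2% higher of all genes. Gp9, Itga6 and Cd84 differed by under 1.5-fold in both comparisons.

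Granule and secreted proteins were mostly level. Of 19 compared in MLL-ENL against Control, 4 (21.1%) were lower and none higher, beside 15.8% lower of all genes. The counts were the same after centring, and the median was -0.17, the same as for all genes. Thbs1, the adhesive granule protein thrombospondin 1, was at 68.3, 16.1 and 10.1 CPM. It was 4.23-fold lower in MLL-ENL than in Control [3.17–5.70] and 1.60-fold lower again in the Skida1-deleted library than in MLL-ENL [1.10–2.32]. The highest 3 cells held 26.1%, 37.7% and 20% of its UMIs, so the second step rests in part on few MLL-ENL cells. Vps33b and Nbeal2, which encode proteins that build alpha granules, were at 34.8, 9.36 and 11.4 CPM and at 13.5, 6.55 and 9.93 CPM. F5, coagulation factor V, was at 29.6, 16.1 and 19.7 CPM. Serpine2, Mmrn1, Timp3 and Srgn, also granule or matrix proteins, differed by under 1.5-fold in both comparisons.

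Of 21 transcription factors of the line compared, 4 were lower in MLL-ENL than in Control and none higher, a share near the 15.8% lower of all genes. After centring 3 were lower. Gfi1b, a repressor needed for platelet and red cell development, was at 127, 45.6 and 40.8 CPM, 2.77-fold lower in MLL-ENL than in Control [2.31–3.34]. Nfe2, an activator of late platelet genes, was at 130, 71.8 and 65.1 CPM, 1.80-fold lower [1.53–2.12]. Lyl1, a relative of TAL1, was at 40.4, 11.0 and 13.4 CPM, 3.68-fold lower [2.56–5.34]. Srf, the fourth, was at 14.3, 8.42 and 8.27 CPM and was within 1.5-fold after centring. In the erythroid cells of these libraries the log2 ratios were -1.29 for Gfi1b, -0.93 for Nfe2 and -1.84 for Lyl1, beside -1.45, -0.84 and -1.79 in the megakaryocyte progenitors. Gata1, Runx1, Zfpm1, Meis1 and Etv6 had log2 ratios between -0.07 and 0.11. None of 20 factors passed 1.5-fold between the Skida1-deleted library and MLL-ENL.

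Signalling and cytoskeletal genes were compared for 30 of 35 members, of which 2 were higher (6.67%) and 4 lower (13.3%) in MLL-ENL than in Control, near the shares of all genes. Flna, which encodes the actin crosslinker filamin A, was higher in MLL-ENL than in Control, at 42.6, 76.2 and 98.5 CPM, or 1.79-fold [1.42–2.27]. Jak2, a kinase of cytokine receptor signalling, was at 35.7, 54.7 and 58.6 CPM. Lat, Gnaz, Bin1 and Tuba8 were lower, Lat at 121, 59.6 and 46.5 CPM. The direction of Lat, an adaptor of the collagen and CLEC-2 receptors, turned in the cells chosen after thinning (log2 ratio 0.12). None of 30 genes passed 1.5-fold after Skida1 deletion.

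**Figure D4:**
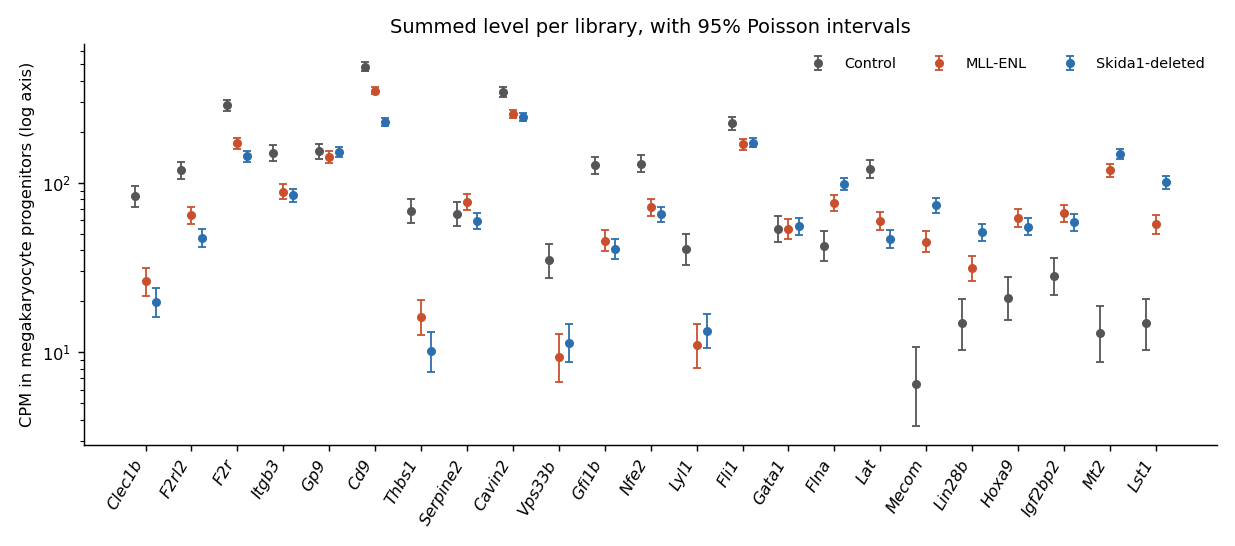
Summed level of 23 genes in the megakaryocyte progenitors of each library, in CPM on a log axis, with exact Poisson 95% intervals. Clec1b, Thbs1, Vps33b, Gfi1b and Lyl1 are highest in Control, Mecom, Lin28b, Hoxa9, Igf2bp2, Mt2 and Lst1 are lowest there, and Gp9 and Gata1 stand level.

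Mecom stood out among the genes that megakaryocyte progenitors share with stem cells. It encodes the zinc finger factor EVI1, which maintains stem cells, and had 15, 192 and 401 UMIs, or 6.52, 44.9 and 73.7 CPM. It was 6.89-fold higher in MLL-ENL than in Control [4.07–12.5] and 1.64-fold higher again in the Skida1-deleted library than in MLL-ENL [1.38–1.96]. No single cell held more than 4.17% of its UMIs in MLL-ENL or 2.74% in the Skida1-deleted library. After thinning, it was found in 0.893% [0.0226–4.87], 12.4% [8.75–16.9] and 20.1% [16.1–24.6] of the chosen cells and in 0.313%, 1.76% and 1.17% of erythroid cells. Both log2 ratios kept their sign under all 15 alternatives, from 1.73 to 2.86 for the fusion and from 0.51 to 0.83 for the deletion.

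The rest of that list went both ways. Of 13 genes compared between MLL-ENL and Control, 2 were higher (Mecom and Hlf, a stem cell factor, at 17.4, 26.7 and 34.7 CPM) and 4 lower. These are 15.4% and 30.8%, beside 6.89% and 15.8% of all genes. Cd34, an adhesion protein of early progenitors, was at 39.1, 15.7 and 17.1 CPM, 2.50-fold lower [1.80–3.48], and Mycn, a MYC family factor, was at 94.4, 53.3 and 35.9 CPM. Slamf1 and Esam were the others. Mecom was 1 of 12 higher (8.33%) after Skida1 deletion, beside 2.2% of all genes, with none lower.

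Among known targets of MLL fusions, more members were higher than lower. Of 24 compared, 10 were higher and 3 lower in MLL-ENL than in Control, beside 6.89% and 15.8% of all genes, and the median was 0.25. Of 11 HoxA genes, which encode body-axis factors that block differentiation of blood cells when kept on, 4 were compared, and all 4 were higher. Hoxa5 and Hoxa10 reached 10 CPM in MLL-ENL but not in Control. The filter thus let them in through the library where they were high, and they could not have counted as lower. The same filter applied to the counts of all targets above. Hoxa9 was at 20.9, 61.7 and 55.2 CPM (2.96-fold [2.17–4.11]), Hoxa10 at 6.96, 18.5 and 15.3 CPM (2.66-fold [1.54–4.87]), Hoxa5 at 4.78, 14.7 and 12.1 CPM and Hoxa7 at 25.2, 48.9 and 47.1 CPM. Their log2 ratios were 1.52, 1.29, 1.44 and 0.93 in the megakaryocyte progenitors and 2.64, 2.27, 1.64 and 2.16 in the erythroid cells of the same libraries. Meis1, the Hox partner, was level at 178, 170 and 172 CPM. Between the Skida1-deleted library and MLL-ENL the median of the 4 HoxA genes was -0.21 and none passed 1.5-fold.

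Outside the HoxA cluster, Igf2bp2, an RNA-binding protein, was at 28.3, 66.0 and 58.3 CPM, 2.33-fold higher in MLL-ENL [1.78–3.11]. Runx2, Arid1b, Mbnl1 and Hmga2 were also higher, and Sox4, Adgrl4 and Myb lower. Eya1, a phosphatase and transcriptional coactivator, was 3.27-fold higher in the Skida1-deleted library than in MLL-ENL [2.11–5.22], with 7, 26 and 108 UMIs and 3.04, 6.08 and 19.9 CPM. It and Mecom were the 2 of 25 listed targets (8%) that passed 1.5-fold in that comparison, beside 2.2% higher of all genes. Eya1 met the 10 CPM filter only through the Skida1-deleted library, where it was high, so it could not have counted as lower. In erythroid cells the log2 ratio of Eya1 was 0.94, beside 1.56 here.

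Fetal genes were divided. Lin28b, which holds the fetal blood program by blocking let-7 microRNAs, was at 14.8, 31.3 and 50.9 CPM, 2.12-fold higher in MLL-ENL than in Control [1.45–3.19] and 1.62-fold higher again in the Skida1-deleted library [1.32–2.01]. Its partner in that program, Hmga2, a chromatin protein and let-7 target, was at 21.7, 43.0 and 54.4 CPM. Dlk1, an imprinted growth regulator, was lower at 31.7, 10.3 and 6.07 CPM, or 3.08-fold in MLL-ENL [2.09–4.59]. Of 9 fetal genes compared, 4 were higher (44.4%) and 2 lower (22.2%) in MLL-ENL, beside 6.89% and 15.8% of all genes.

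Of 21 MLL and Polycomb genes compared, 5 (23.8%) were lower in MLL-ENL than in Control and none higher, beside 15.8% of all genes, and after centring 1 was lower. Ezh2, the methyltransferase of Polycomb complex 2, was at 268, 161 and 183 CPM, and Eed, which binds its mark, at 47.4, 28.1 and 30.9 CPM. Men1, which encodes the MLL partner menin, was at 24.8, 11.5 and 11.6 CPM. None of 20 such genes passed 1.5-fold after Skida1 deletion. Kmt2a and Mllt1, the mouse genes of MLL and ENL, were at 128, 108 and 116 CPM and at 14.3, 8.42 and 9.01 CPM.

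Mitotic genes were lower in MLL-ENL than in Control. Of 51 genes of the G2 and M phases compared, 27 were lower and none higher, beside 15.8% lower of all genes, and 19 remained past 1.5-fold after centring. The list's median was -0.60, and -0.26 in erythroid cells. Ube2c, which helps degrade mitotic cyclins, was at 373, 166 and 135 CPM (2.25-fold lower [2.03–2.49]), Cenpe, a kinetochore motor, at 176, 73.9 and 66.9 CPM (2.38-fold lower [2.05–2.77]), and Plk1, a mitotic kinase, at 65.7, 25.7 and 27.8 CPM. Of 44 S phase genes 1 was higher (2.27%) and 5 lower (11.4%), beside 6.89% and 15.8% of all genes. Their median was -0.11, and after centring 2 were higher and 1 lower. Mki67, a marker of cycling cells, was detected after thinning in 53.6% [43.9–63.0], 48.5% [42.5–54.6] and 42.7% [37.6–48.0] of the chosen cells, with overlapping intervals. Of 21 genes of endomitosis and cell cycle control 1 was higher (4.76%) and 2 lower (9.52%), which became 5 and 2 after centring. No gene of the S or G2 and M lists passed 1.5-fold between the Skida1-deleted library and MLL-ENL.

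Subunits of the respiratory chain were higher in MLL-ENL than in Control, 14 of 26 (53.8%) with none lower, beside 6.89% and 15.8% of all genes, and a median of 0.64. The median was 0.67 in the erythroid cells of the same libraries. Atp5e was at 270, 664 and 862 CPM, Ndufa3 at 61.7, 150 and 266 CPM and Atp5k at 107, 256 and 507 CPM. All 3 encode small subunits of ATP synthase or complex I. The larger subunits Atp5a1 and Ndufv1 were not among the higher ones, at 751, 739 and 679 CPM and at 126, 93.1 and 86.2 CPM. Ribosomal proteins took 27.7%, 32.5% and 33.4% of the UMIs of the chosen cells and 28.2%, 32.8% and 33.5% in the other kept cells. The part of library-wide differences in these genes was not tested.

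**Figure D5:**
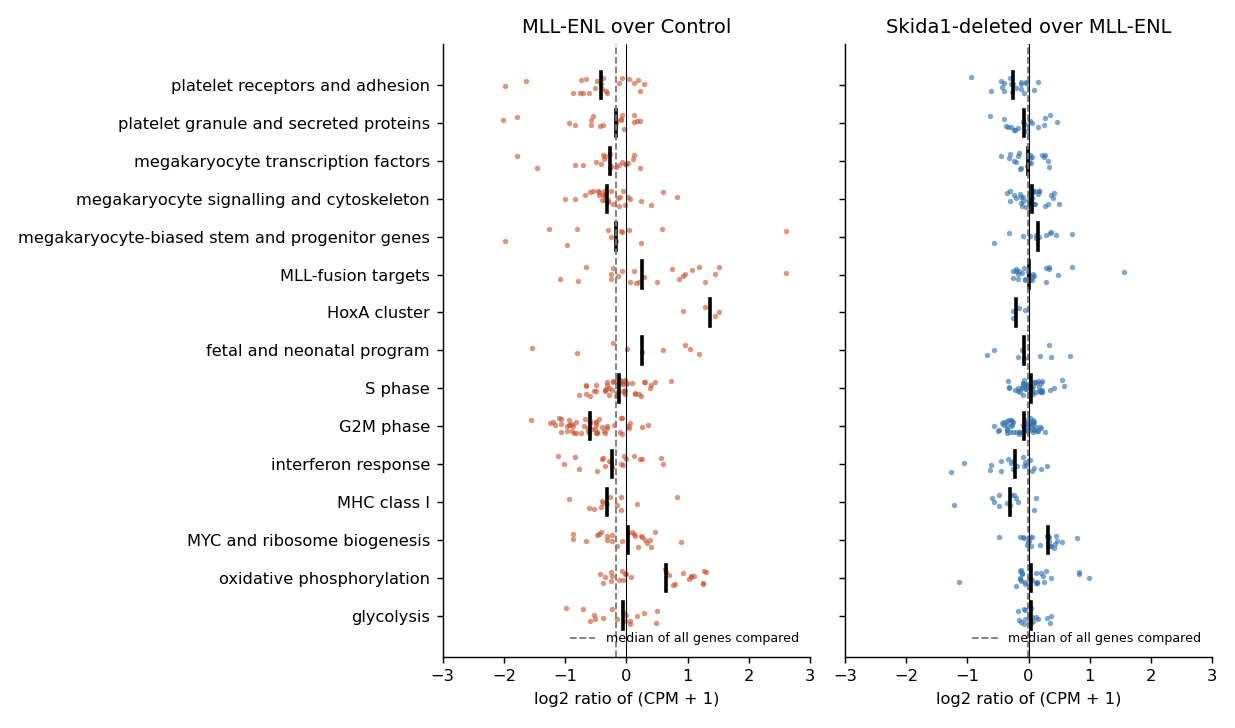
Log2 ratios of (CPM + 1) of the genes compared in 15 lists, for MLL-ENL over Control (left) and Skida1-deleted over MLL-ENL (right). Points are genes, black bars list medians and the dashed line is the median of all genes compared (-0.17 and -0.02). G2M phase and the platelet receptors lie left of the dashed line on the left panel, with medians of -0.60 and -0.41. HoxA genes and oxidative phosphorylation lie right of it, and on the right panel most lists sit close to 0.

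Of the 4676 genes eligible for naming, those with the largest log2 ratios of MLL-ENL over Control included Mt2 (3.09), a metal-binding metallothionein, Mecom (2.61), Cd24a (2.23), Pcdh7 (2.12), Zbtb16 (1.91), Lst1 (1.87), Car1 (1.81), S100a6 (1.66) and Baz2b (1.58). Pcdh7, a protocadherin, was at 43.5, 192 and 179 CPM, and detected in 229 of 277 MLL-ENL cells against 59 of 112 Control cells. Zbtb16, the PLZF factor, was at 13.5, 53.6 and 48.2 CPM. Lst1, a leukocyte protein, was at 14.8, 56.8 and 101 CPM, 3.84-fold above Control in MLL-ENL [2.68–5.68] and a further 1.77-fold with Skida1 deleted [1.52–2.07].

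Mt2 was found in 23 Control, 150 MLL-ENL and 148 Skida1-deleted cells. It had 30, 507 and 806 UMIs, 9.09-fold higher in MLL-ENL than in Control [6.29–13.6]. In the erythroid cells Mt2 was at 511, 1333 and 1946 CPM. Car1, carbonic anhydrase 1 of red cells, was at 36.5, 131 and 76.3 CPM and at 634, 527 and 349 CPM in the erythroid cells. Cd24a was likewise higher in the erythroid cells, at 353, 406 and 423 CPM against 10.0, 50.5 and 52.4 CPM. The part of erythroid RNA in these 3 differences was not tested. Tpm3-rs7 (3.36), Hist1h2ap (1.66) and Tsix (2.10) were also among the 12. They share sequence with near copies or overlap Xist on the other strand, so their UMIs are uncertain.

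The 12 lowest log2 ratios were those of Mrvi1 (-2.07), Prtn3 (-2.05), Thbs1 (-2.01), Cdc42ep5 (-1.82), Vps33b (-1.79), Lyl1 (-1.79), Mpo (-1.78), Slc28a2 (-1.76), Ankrd29 (-1.76), Clec1b (-1.64), Kif2c (-1.55) and Chek2 (-1.54). Mrvi1, a partner of the cyclic GMP kinase that restrains platelet activation, was at 166, 38.6 and 37.7 CPM, 4.29-fold lower in MLL-ENL [3.57–5.18]. It was found in 85 of 112 Control cells and 85 of 277 MLL-ENL cells. Mrvi1, Thbs1, Vps33b, Clec1b and Cdc42ep5 were spread over 41 to 85 Control cells. Prtn3 and Mpo, granule proteins of neutrophil precursors, were not, since 1 Control cell held 48.5% and 55.5% of their UMIs. Without the cells that expressed genes of other lineages the log2 ratio of Mpo was 0.74.

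Few genes set the Skida1-deleted library apart from MLL-ENL. The highest of 4237 eligible genes were Brd9 (1.12), Smim27 (1.03), Hbb-bt (0.98), Atp5k (0.98), Crnkl1 (0.97), Polr2l (0.96), Pdcd11 (0.94), Rab26os (0.92), Ankra2 (0.91), Hist1h4h (0.91), Eif3j1 (0.87) and Rpgrip1 (0.85). Brd9, a subunit of a BAF chromatin remodelling complex, had 46, 102 and 289 UMIs and was 2.23-fold higher in the Skida1-deleted library than in MLL-ENL [1.77–2.82]. In erythroid cells it was at 19.4, 24.4 and 40.1 CPM. Polr2l, a small polymerase subunit, was at 24.0, 70.8 and 149 CPM in erythroid cells, and its fold in the megakaryocyte progenitors was 1.96 [1.65–2.34].

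The lowest were Tsix (-4.64), Rpa3 (-1.52), H2-T23 (-1.22), Sdhd (-1.14), Mrps28 (-1.04), Kdm6a (-1.02), Ctsg (-1.01), Snhg9 (-0.93), Tmem128 (-0.87), Snhg6 (-0.78), Car1 (-0.77) and Fbxl14 (-0.75). Rpa3, the small chain of replication protein A, had 231, 367 and 159 UMIs and was 2.94-fold lower in the Skida1-deleted library than in MLL-ENL [2.43–3.56]. In erythroid cells it was at 97.1, 97.4 and 29.0 CPM. Sdhd, a subunit of respiratory complex II, was 2.22-fold lower [1.94–2.54] and stood at 299, 252 and 113 CPM in erythroid cells. H2-T23, a nonclassical MHC gene whose reads may be shared with its relatives, was 2.36-fold lower [1.99–2.81]. Tsix and Kdm6a are X-linked and moved with the sex of the library. For Ctsg, a neutrophil granule protease, 1 MLL-ENL cell held 68.7% of the UMIs. The differences of Brd9, Polr2l, Rpa3, Sdhd and H2-T23 were thus present in the erythroid cells of the same libraries in the same direction.

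Some genes of antigen presentation and the interferon response passed 1.5-fold in each comparison. Of 13 MHC class I genes compared, 2 were lower (H2-D1 and H2-Q4) and 1 higher (Tapbp) in MLL-ENL than in Control. These are 15.4% and 7.69%, near the 15.8% and 6.89% of all genes. After Skida1 deletion 2 were lower (H2-T23 and Psmb9), or 15.4%, beside 1.62% of all genes. H2-D1, a classical class I chain with near copies, was at 397, 207 and 147 CPM, and B2m, the invariant chain, at 407, 385 and 258 CPM. Of 20 interferon genes 4 were lower (Isg15, Irf7, Oasl2 and Ifitm1) and 1 higher (Xaf1) in MLL-ENL than in Control, or 20% and 5% beside 15.8% and 6.89% of all genes. Between the Skida1-deleted library and MLL-ENL, 4 of 20 (20%) were lower and none higher, beside 1.62% and 2.2% of all genes. They were Ifit1 (8.70, 10.3 and 3.68 CPM), Irgm1 (27.8, 23.6 and 10.8 CPM), Usp18 and Parp14. The list's median of -0.22 in that comparison became 0.020 where the 6 genes had to sum to 10 or more. For Ifit1, 1 MLL-ENL cell held 31.8% of the UMIs, and for Isg15, 1 Control cell held 31.7%.

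Of 25 ribosome biogenesis genes 1 was higher (Tcof1) and 3 lower (Polr1b, Rrs1 and Nop16) in MLL-ENL than in Control, or 4% and 12% beside 6.89% and 15.8% of all genes. The list's median was 0.02, and it had a median of 0.31 after Skida1 deletion, against -0.02 for all genes. In that comparison 1 of 25 (4%) was higher by 1.5-fold, beside 2.2% of all genes. It was Wdr43, a factor of the small ribosomal subunit, at 123, 125 and 218 CPM. In erythroid cells the list's median was 0.17. Of 17 glycolysis genes 3 (17.6%) were lower in MLL-ENL than in Control, with Pgam1, phosphoglycerate mutase, at 471, 238 and 211 CPM. Of 14 cytokine receptors compared 3 (21.4%) were lower, of 15 cholesterol synthesis genes 1 (6.67%), and of 7 immediate early genes 3 (42.9%). Apart from the 7 immediate early genes, these shares were near or below the 15.8% of all genes. None of these 4 lists but the immediate early genes had a member past 1.5-fold after Skida1 deletion. There Btg2 was lower, 1 of 7 (14.3%), beside 1.62% lower of all genes.

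Some genes of other lineages rested on few cells, while Car1 and Cd79b did not. Car1 had UMIs in 139 of 277 MLL-ENL and 115 of 364 Skida1-deleted cells. In MLL-ENL, Prss34, a basophil protease, had 122 UMIs in 6 cells and Cma1, a mast cell chymase, 87 UMIs in 3 cells, of which 1 held 97.7%. Cma1 had 0 UMIs in Control, and both had 0 in the Skida1-deleted library, which allows up to 0.552 CPM there (3 UMIs of the total). Of 6 granulocyte-monocyte markers compared 4 (66.7%) were lower in MLL-ENL than in Control, beside 15.8% of all genes. Their median of -1.24 became 0.043 without the cells that expressed other lineages. In the erythroid list, whose values the selection limits, 2 of 10 compared (20%) were higher in MLL-ENL, beside 6.89% of all genes. They were Car1 and the globin gene Hbb-bs, the latter at 5.22, 15.7 and 27.2 CPM with 12, 67 and 148 UMIs. Without the erythroid limit the log2 ratio of Hbb-bs between MLL-ENL and Control was -1.33 in place of 1.42, so its direction rests on the selection.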

How the data were processed

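Single-cell RNA and 10 antibody tags were measured in 3 libraries (1 per group). The deposited matrices hold UMI counts for 32285 genes per cell barcode, raw and not normalized. Cell Ranger 6.1.2 made them per the file headers. Per the submitters' processing notes the version was 6.0.1, with build mm10. How the authors treated doublets or annotated cells was not given in the sources used here.

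Cells were kept and chosen as the opening states, and UMIs were summed over the chosen cells of each library and scaled to counts per 1000000 gene UMIs (CPM). The libraries held 112, 277 and 364 such cells and 2299914, 4275628 and 5439243 UMIs. CPM has exact Poisson intervals, folds exact conditional binomial ones, and shares exact binomial (Clopper-Pearson) ones. The confidence level is 95%, and all cover counting error only. Since each group had 1 library, no test was made. Log2 ratios used 1 CPM as pseudocount. Erythroid cells, shown beside them, reached 5 per 10000 in the 4 erythroid genes of the rule and were not chosen. No doublets were removed. Scrublet in scanpy 1.11.5 gave scores, and leaving out the highest at 0.8% per 1000 cells was an alternative. Thinning drew 3000 UMIs per cell. Python 3.11.15, numpy 2.4.6, scipy 1.17.1 and pandas 2.3.3 were used. Summing and calling were tested on simulated data. Gene positions and promoters come from RefSeq tables of GRCm38.p6, which is mm10.

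Genes were named by a rule. It took the 12 highest and the 12 lowest log2 ratios of each comparison, from 30 CPM in either library and 50 UMIs in both together. It passed over mitochondrial, ribosomal and receptor segment genes, unnamed models, Xist and Y-linked genes. Other X-linked genes, such as Tsix and Kdm6a, could be named. Skida1, Kmt2a, Mllt1, the 6 selecting genes and, per list, up to 4 genes of largest ratio were added. Other list members named with values were chosen after these were seen. The chosen cells and the lists were defined with earlier results of these data known.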

Additional observations from a re-analysis of the deposited data

How the results depend on the processing

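Each library stands for 1 group, so differences between animals, litters or preparations could not be separated from those between genotypes. No paired analysis was possible because each group had 1 library. Counts of 50 UMIs or fewer over both libraries, and shares of the 112 Control cells, are limited by depth. The share of megakaryocyte progenitors among kept cells was higher in MLL-ENL than in Control under all 9 alternatives of choosing cells. It was also higher in the Skida1-deleted library than in MLL-ENL under all 9. Its folds ranged from 1.10 to 1.62 and from 1.09 to 1.61, and thinning gave 1.62 and 1.09.

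The number of genes past 1.5-fold depended on the filter. For MLL-ENL over Control, 553 were higher and 1267 lower. These became 264 and 250 in thinned cells, 893 and 692 after centring, 305 and 605 with 10 CPM added, 228 and 381 from 50 CPM, and 1091 and 2393 with no filter. For Skida1-deleted over MLL-ENL, 169 were higher and 125 lower. These became 68 and 33 with 10 CPM added, 55 and 21 from 50 CPM, and 641 and 561 with no filter, while weighting by the Control ranges of the 6-gene sum gave 267 higher. The cause was not tested, apart from the fewer or more genes that a filter lets in.

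The share above the 90th percentile of CD41 went to 98.5%, 94.5% and 98.9% at a 6-gene sum of 10 or more. It was 96.9% in MLL-ENL with 4 genes required, 98.1% in Control with the strict cell filter, and 99.1% in Control as a share of a cell's tags. For CD150 in MLL-ENL it was 91.2% with 4 genes required, 88.8% with the strict filter and 92.8% where CD41 was required, an alternative chosen after seeing the data. In Control the strict filter gave 92.6%.

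Of the alternative values for named genes, 3624 were counted as staying, 257 as moved and 8 as turned. Of those for list medians, 680 were counted as staying, 44 as moved and 4 as turned. These counts miss changes of sign in smaller ratios and medians, which were not counted as turned. Cd34 in Skida1-deleted over MLL-ENL, at 0.12, ranged from -0.54 to 0.30. The S phase median in MLL-ENL over Control, at -0.11, reached 0.059. The values counted as turned follow. In thinned cells Lat in MLL-ENL over Control became 0.12, and Fbxl14 and the median of the platelet receptors in Skida1-deleted over MLL-ENL became 0.17 and 0.025. Without cells of other lineages, Mpo, Trf and the granulocyte-monocyte median in MLL-ENL over Control became 0.74, 0.028 and 0.043. Without the erythroid limit Ermap, Hbb-bs and Hba-a1 became -0.80, -1.33 and -1.84. Ctsg in Skida1-deleted over MLL-ENL became 0.58 at an erythroid sum below 2, the interferon median 0.020 at a 6-gene sum of 10, and the cytokine receptor median in MLL-ENL over Control 0.045 from 50 CPM. The cause was not tested.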
